A study of Rattus norvegicus with 6 samples.

Results

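The genes described here encode the nuclear-encoded subunits of the mitochondrial respiratory chain. They were chosen by symbol alone, as every row of the count tables whose symbol begins with Ndufa, Ndufb, Ndufc, Ndufs, Ndufv, Uqcr, Cox4 to Cox8 or Atp5, together with Cyc1, Cycs and Sdha to Sdhd, with the Ndufaf assembly factors left out. This gave 83 of the 17048 rows, which carry 16881 different symbols. By complex, 34 of the 83 belong to complex I, 4 to complex II, 9 to complex III, 18 to complex IV and 15 to complex V, and 1 is the electron carrier Cycs. The remaining 2, Atp5s and Atp5sl, carry the Atp5 name but are not structural subunits of ATP synthase and were kept apart. Cox6c-ps1 is a pseudogene by its symbol, and Cox7a2l is better known for its part in joining complexes into supercomplexes.

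RNA was measured in rat neural stem/progenitor cells (NSPCs) of wild-type genotype, prepared from the telencephalon of Sprague-Dawley embryos, passaged as floating spheres and then grown for 24 h on a film in medium that maintains stemness. The groups were named by the carbon film under the cells, made of oxidized multiwall carbon nanotubes and of High, Medium or Low electrical conductivity, with 2 libraries per film. The films were coated with poly-D-lysine and laminin before seeding. The methods of the adhesion assays give the same poly-D-lysine concentration for High and Low, a lower one for Medium, and the same laminin for all. According to the paper, poly-D-lysine was adjusted so that the films bound comparable amounts of laminin. On Medium the effects of conductivity and of this concentration cannot be told apart. Conductivity was set by the time of oxidation, so these 2 cannot be told apart on any film. No plain culture dish was among the libraries, so the High film served as the reference, and the comparison asked how the transcripts differ on the less conductive films. Neither the labels nor the methods say that the 2 libraries of a film came from separate cultures, so p-values measure the spread between these libraries, which may be technical.

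The respiratory chain passes electrons from NADH (complex I) and from succinate (complex II) through ubiquinone, complex III and cytochrome c to oxygen at complex IV, and the proton gradient built on the way drives ATP synthesis at complex V. Most subunits are encoded in the nucleus, made in the cytosol and imported, whereas a small set is made inside the mitochondrion. Only complex II has no mitochondrially encoded subunit. Neural stem cells are known to draw much of their ATP from glycolysis and to turn to oxidative phosphorylation as they become neurons.

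Nuclear respiratory chain genes are known to be shared targets of the factors NRF-1, GABP (an ETS factor, also called NRF-2) and YY1, so the promoters were searched for the letters GCATGCGC (NRF-1 core), CCGGAAG (ETS core) and AAGATGGC (YY1 core) on both strands. RefSeq promoter windows of the GRCr8 build, each of 250 bases before and 50 bases after the start site, were found for 70 of the 83 members, 15 of them under an older symbol. The NRF-1 core was in 14.3% of these 70 windows and in 2.66% of the 27457 rat promoters of the same length. The ETS core was in 27.1% against 9.22%, and the YY1 core in 21.4% against 3.44%. At least 1 of the 3 was in 47.1% of the members' windows and 14.1% of all windows. Among the 19005 windows of protein-coding genes the shares were 3.23% (NRF-1), 11.2% (ETS), 3.92% (YY1) and 16.8% (at least 1). Matching letters describe the window and do not show that a factor was bound.

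The windows of 5 members that the results below turn on are printed here 5′ to 3′ along the gene, with matches in capitals. Cox7c (chr2:18579121-18579420, minus strand), Ndufa4 (chr4:40975510-40975809, minus strand) and Atp5g3 (chr3:79220615-79220914, minus strand) held none of these 3 words. Atp5i (chr14:1464610-1464909, plus strand) held all 3, with 2 NRF-1 cores that overlap each other. Atp5g2 (chr7:135678169-135678468, minus strand) held 2 overlapping NRF-1 cores.
Cox7c: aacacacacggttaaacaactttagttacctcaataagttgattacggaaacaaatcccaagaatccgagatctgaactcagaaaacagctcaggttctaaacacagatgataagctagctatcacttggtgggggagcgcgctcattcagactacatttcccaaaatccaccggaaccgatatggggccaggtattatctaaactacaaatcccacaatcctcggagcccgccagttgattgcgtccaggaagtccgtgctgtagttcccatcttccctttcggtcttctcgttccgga
Ndufa4: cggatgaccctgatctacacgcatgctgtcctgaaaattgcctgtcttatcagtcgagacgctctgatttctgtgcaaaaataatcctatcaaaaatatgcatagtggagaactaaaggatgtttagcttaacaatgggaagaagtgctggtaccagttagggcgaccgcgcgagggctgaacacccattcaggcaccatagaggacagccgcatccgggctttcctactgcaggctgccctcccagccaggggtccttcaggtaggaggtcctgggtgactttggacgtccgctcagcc
Atp5i: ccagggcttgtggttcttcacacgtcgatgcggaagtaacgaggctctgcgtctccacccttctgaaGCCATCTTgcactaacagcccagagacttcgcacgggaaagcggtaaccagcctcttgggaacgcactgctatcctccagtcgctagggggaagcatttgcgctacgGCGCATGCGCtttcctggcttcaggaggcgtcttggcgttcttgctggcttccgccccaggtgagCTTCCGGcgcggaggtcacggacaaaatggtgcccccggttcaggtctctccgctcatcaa
Atp5g3: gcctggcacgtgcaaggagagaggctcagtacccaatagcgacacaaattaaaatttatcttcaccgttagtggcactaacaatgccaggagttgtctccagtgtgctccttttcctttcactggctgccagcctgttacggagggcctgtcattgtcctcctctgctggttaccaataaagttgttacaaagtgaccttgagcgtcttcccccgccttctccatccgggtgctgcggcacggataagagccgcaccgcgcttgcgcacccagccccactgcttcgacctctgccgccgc
Atp5g2: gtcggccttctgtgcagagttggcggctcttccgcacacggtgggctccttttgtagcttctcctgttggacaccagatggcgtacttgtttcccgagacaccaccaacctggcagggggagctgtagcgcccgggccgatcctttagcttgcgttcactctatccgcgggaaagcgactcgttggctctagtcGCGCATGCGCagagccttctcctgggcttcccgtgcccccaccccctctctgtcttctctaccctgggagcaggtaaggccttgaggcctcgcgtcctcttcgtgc

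Among the 9 members with an NRF-1 core that were tested, the median log2 fold change of Low and Medium over High was 0.45. Among the 58 tested members without that core it was 0.17, beside −0.12 over all rows tested and 0.06 over rows with a mean of at least 100 CPM. The 9 ran from −0.57 (Uqcrc1) to 1.01 (Atp5i), and 0.45 is the value of Atp5o (SE 0.35). All Low and Medium libraries were above both High libraries in 2 of the 9 and 9 of the 58, beside 8.06% of all rows. Whether the 2 sets differ was not tested.

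The libraries held between 5124863 and 6213676 counts, of which the 83 members took 2.10% to 4.03%. Values below are TMM-normalized CPM, the counts scaled to a common library size, and because reads come from the 3′ end of the transcript a CPM value does not grow with transcript length. Ribosomal RNA (Rn45s, Rn18s and Rn28s) took 26.1% and 38.4% of the counts of the High libraries, 7.27% and 13.0% of Medium and 7.16% and 7.64% of Low. It moved with the film, and its part in the results was not tested beyond leaving these rows out. The libraries showed NSPC markers, 7 of 9 with counts (Vim, Sox9, Sox2, Nes, Fabp7, Pax6 and Notch1) and Hes5 and Msi1 at 0. Their summed level, more of it from Vim than from any other, was 3175 to 3381 CPM on High and 4593 to 6162 CPM on Medium and Low, while Fabp7 had 205 and 225 CPM on High, 342 and 156 on Medium, and 42.3 and 119 on Low. The part of these markers in the results below was not tested. Of 8 neuron markers 3 were at 0 in every library (Rbfox3, Syt1 and Nefl) and the sum was 12.4 and 12.6 CPM on High, 0.172 and 0.984 on Medium, and 33.9 and 29.7 on Low. Of 7 microglia markers only Aif1 had counts, in 1 library. Red blood cell markers summed to 9.30 CPM in High replicate 2 and had no count elsewhere. Meningeal and vascular markers, 5 of 8 at 0 everywhere (Cldn5, Dcn, Lum, Pdgfrb and Pecam1), summed to 392 CPM in Medium replicate 2 and to at most 35.8 CPM in each other library. Astrocyte markers (3 of 6 at 0: Aldh1l1, Aqp4 and Slc1a2) summed to 153 and 188 CPM on High and 201 to 380 CPM on the other films. Oligodendrocyte lineage markers (2 of 8 at 0: Mag and Sox10) summed to 326 and 413 CPM on High and 510 to 748 CPM on the other films. In bulk RNA, a change in the share of cells of one kind and a change in RNA per cell cannot be told apart.

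Respiratory chain transcripts were abundant in these NSPCs. Of the 83 members, 80 had a count in at least 1 library and 78 passed the filter on low counts. Cox7c, a small membrane subunit of complex IV, had the highest mean level of them (2206 CPM) and ranked 27 of all 17048 rows. Atp5g3 (1742 CPM), Ndufa4 (1208 CPM), Atp5l (1163 CPM) and Uqcrh (1142 CPM) followed, and these 5 were the members among the 100 highest rows. The median over the tested members was 301 CPM, beside 38.8 CPM over all 7729 rows tested.

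Most tissue-restricted forms were at or near 0 in most libraries. Cox6a2 and Cox8b, the heart and muscle forms of their subunits, and Cox8c, the testis form, had no count in any library. Cox4i2, the lung and hypoxia form of subunit 4, was counted in High replicate 1 alone (69 counts), whereas its common partner Cox4i1 lay between 36.9 and 126.7 CPM. Ndufa4l2, the hypoxia-induced paralog of Ndufa4, had 33 counts in Medium replicate 2, 16 in Low replicate 2 and 0 elsewhere. Cox6b2, the testis form of subunit 6b, lay between 1.19 and 39.6 CPM. The pseudogene Cox6c-ps1 had at most 2 counts while Cox6c had 727 to 979 CPM, and since reads with several alignments were counted, near-identical copies such as this pair cannot be separated with certainty.

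Between the less conductive films and High, 1 of the 78 tested members, Cox7c, rose past an adjusted p of 0.05 (edgeR quasi-likelihood test, Benjamini-Hochberg over all 7729 rows). Over all rows the same rule called 10, or 0.129%. At an unadjusted p under 0.05, 8 members were higher (Cox7c, Cox7b, Ndufa2, Ndufb3, Ndufb7, Uqcr11, Atp5g3 and Atp5i), beside 2.69% of all rows, and 1 was lower (Ndufb11), beside 2.81%. In 12 members all 4 Low and Medium libraries were above both High libraries, beside 8.06% of all rows, and in 3 (Ndufb11, Uqcrc1 and Atp5b) all 4 were below, beside 10.1%. The other 63 overlapped. Members are more abundant than most rows. Among rows with a mean of at least 100 CPM, 11 of the 58 members were separate and above High, beside 15.8% of 1847 rows, and 3 were below, beside 11.7%. At an unadjusted p under 0.05, 8 of the 58 were higher, beside 8.28%, and 1 was lower, beside 5.74%. DESeq2 called 6 of the 78 in this comparison and 4.54% of all rows, and limma-voom called 1 and 0.298%.

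Over the 78 tested members the log2 fold change was above 0 in 49 and had a median of 0.15, beside −0.12 over all rows. This gap in medians was not stable. Without High replicate 1 the members' median was 0.11 and that of all rows 0.32, so the order turned, and with each library raised to at least 3 counts the medians were 0.18 and 0.05. Among rows with a mean of at least 100 CPM the 58 members had a median of 0.17 and all 1847 rows 0.06. With library sizes in place of TMM the medians were 0.53 and 0.26. Library sizes, here and below, include the ribosomal RNA counts, whose share was larger on High. With those rows left out under TMM the medians were 0.14 and −0.13. For scale, the 104 tested rows of cytosolic ribosomal proteins had a median of 0.07 and the 67 of mitochondrial ribosomal proteins 0.33.

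**Figure D1:**
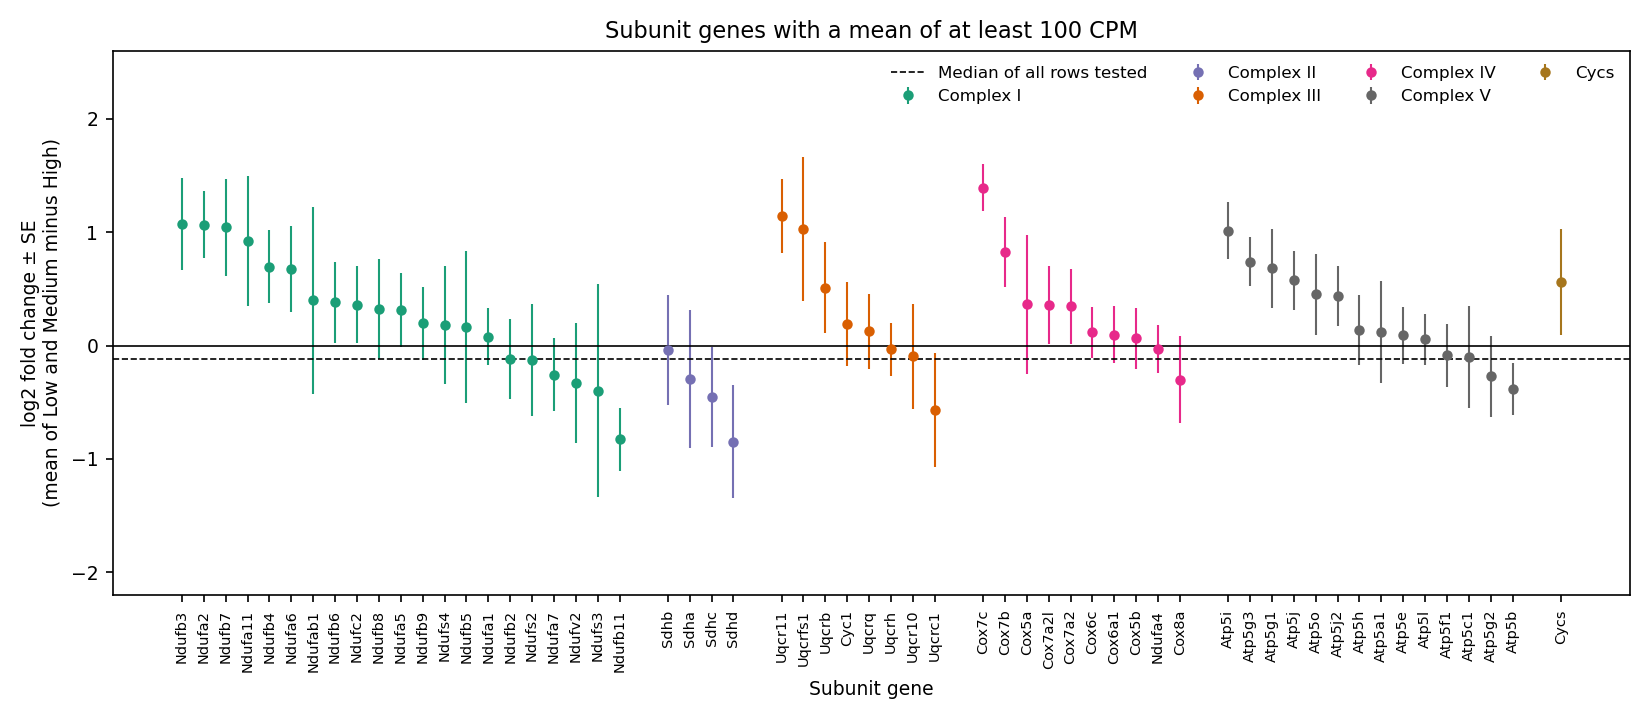
Log2 fold change (mean of Low and Medium minus High, TMM scale) of each subunit gene with a mean of at least 100 CPM, sorted within complexes I to V, with Cycs last. Points are the edgeR estimates with bars of 1 SE, the dashed line is the median of all rows tested (−0.12), and Cox7c at 1.39 is the highest point.

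Complex IV, cytochrome c oxidase, held the gene that passed the threshold. Cox7c read 1008 and 1109.8 CPM on High, 2878 and 2509.6 CPM on Medium, and 3259 and 2473 CPM on Low. Every Medium and Low library was more than 2-fold above either High library, and Medium and Low overlapped each other. The log2 fold change was 1.39 ± 0.21 (SE), with an adjusted p of 0.0438 (edgeR quasi-likelihood test). It stayed between 1.29 and 1.80 over 15 alternatives and past the threshold in 14 of them, and with DESeq2's size factors in the edgeR fit it was 1.34 with an adjusted p of 0.0595. It passed the threshold without each library in turn, Medium replicate 2 with its collagen counts included. With the ribosomal RNA rows left out Cox7c was still past the threshold and the median of the members was 0.14.

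Ndufa4, long listed with complex I and now placed in complex IV, was spread over the films in another way. It read 1191 and 1245 CPM on High, 1119.7 and 939 CPM on Medium, and 1547 and 1209.5 CPM on Low. The High values lay inside the range of the other 4 libraries, and the log2 fold change was −0.03 ± 0.21 (SE). Without TMM scaling this value was 0.37, and neither passed the threshold. The ratio of Cox7c to Ndufa4 within a library, which does not depend on the scaling, was 0.846 and 0.892 on High, 2.57 and 2.67 on Medium, and 2.11 and 2.04 on Low. All 4 lower-conductivity libraries had more Cox7c than Ndufa4 and both High libraries had less. The smallest p that an exact permutation test (two-sided) of such a value can reach with 4 libraries against 2 is 0.133.

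Cox7b, a small X-linked membrane subunit, was the other complex IV gene with separate groups. In 2 of the 13 tested genes of the complex all Low and Medium libraries were thus above High. The shares were 8.06% of all rows and 15.8% of rows with a mean of at least 100 CPM. Cox7b had 405 and 429 CPM on High, 1006 and 580.5 CPM on Medium, and 555 and 829 CPM on Low. The log2 difference was 0.83 ± 0.31 (SE) with an unadjusted p of 0.0234. Its adjusted p by the edgeR quasi-likelihood test was 0.801. The groups did not overlap, while the 2 Medium libraries differed from each other by 0.79 on the log2(CPM + 1) scale. The remaining complex IV genes overlapped between High and the joint set of Low and Medium libraries. Cox6a1, the common form of subunit 6a, differed by 0.10 ± 0.25 (SE) in log2, and Cox7a2 and Cox7a2l by 0.35 ± 0.33 and 0.36 ± 0.34. Cox4i1, Cox8a and Ndufa4 were the members of the complex with a log2 fold change below 0.

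Summed over its members, complex IV stood at 6680.4 and 6641 CPM on High, 9378 and 7609 CPM on Medium, and 10349.6 and 8031 CPM on Low, a ratio of 1.33 between the mean of the other films and High. Without Cox7c the ratio was 1.08, with 5673 and 5531 CPM on High, 6500.1 and 5099 CPM on Medium, and 7091 and 5558 CPM on Low. The groups then overlapped. Cox7c made up 15.1% and 16.7% of the complex IV sum on High, 30.7% and 33.0% on Medium, and 31.5% and 30.8% on Low, whereas Ndufa4 made up 17.8% and 18.7%, 11.9% and 12.3%, and 14.9% and 15.1%. The SD of the Cox7c share within a film was at most 1.62 percentage points (n = 2).

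**Figure D2:**
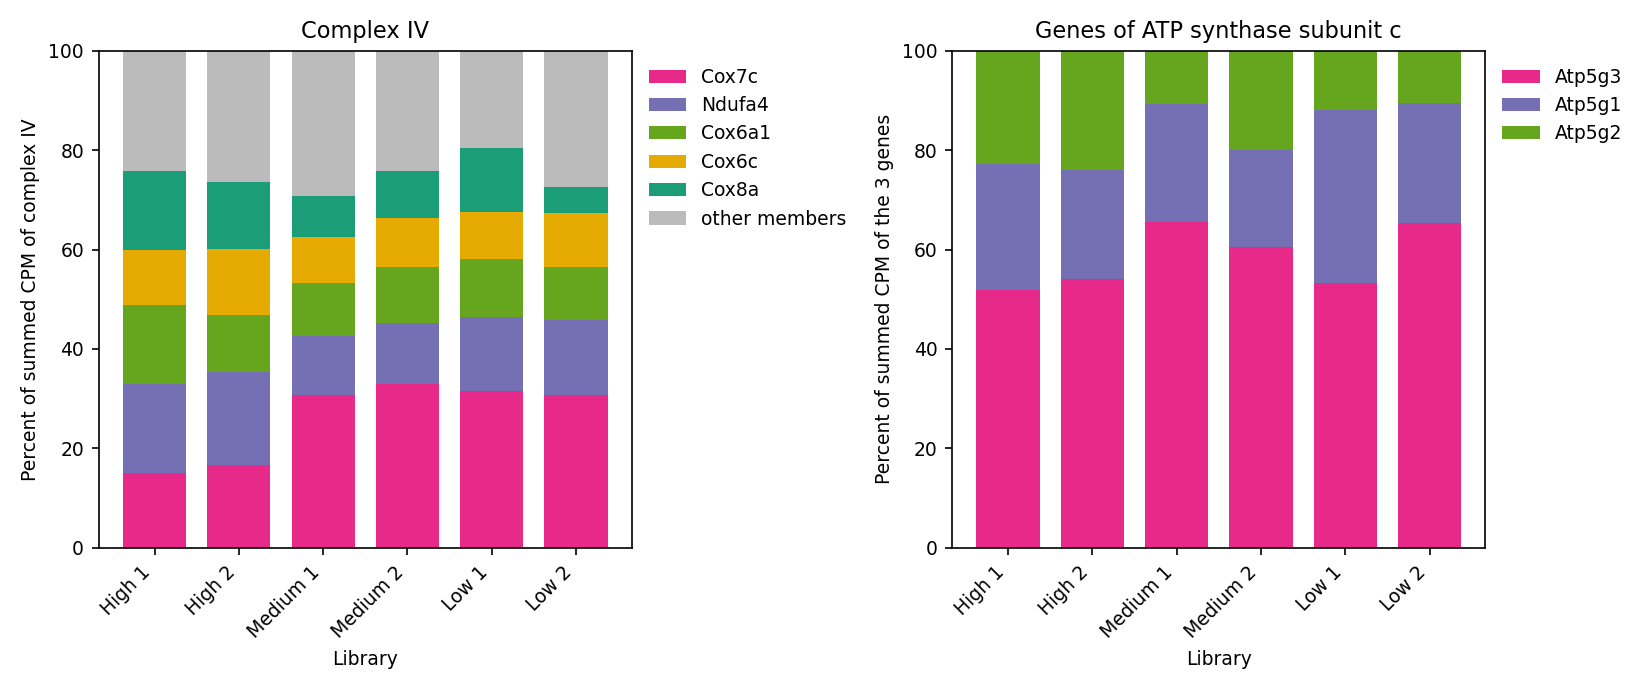
Left, percent of the summed CPM of complex IV taken by its 5 highest members and by all others, by library. Right, percent of the summed CPM of Atp5g1, Atp5g2 and Atp5g3 taken by each. The Cox7c band is 15.1% and 16.7% on High and 30.7% to 33.0% on the other films, and the Atp5g2 band is 22.7% and 24.0% on High and 10.4% to 20.001% on the others.

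Complex V, the ATP synthase, had 15 members, all tested. Of these, 10 had a log2 fold change above 0, 4 had all Low and Medium libraries above High (Atp5i, Atp5g3, Atp5g1 and Atp5j) and 1 had them all below (Atp5b), beside 8.06% and 10.1% of all rows, or 15.8% and 11.7% of rows with a mean of at least 100 CPM. Atp5i, the e subunit of the membrane part, had 542 and 424 CPM on High, 935 and 869 CPM on Medium, and 1204 and 900.4 CPM on Low. The lowest of the 4 was well above the higher High library, and the log2 fold change was 1.01 ± 0.25 (SE) with an adjusted p of 0.413 (edgeR quasi-likelihood test).

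The c subunit of the rotor ring is encoded by 3 genes whose mature proteins are the same. Atp5g3 had 1133 and 1276 CPM on High, 2227 and 1983 CPM on Medium, and 2243 and 1592 CPM on Low, a log2 fold change of 0.74 ± 0.22 (SE) with an adjusted p of 0.573. Atp5g1 had 553 and 520.1 CPM, 805 and 637 CPM, and 1463 and 593 CPM, with 0.68 ± 0.35 (SE). Atp5g2 had 495 and 568 CPM, 367 and 655 CPM, and 505 and 254 CPM, with −0.27 ± 0.36 (SE), a sign that turned to 0.12 with library sizes in place of TMM. Atp5g3 and Atp5g1 were thus higher on the less conductive films in every library, none of the 3 past the adjusted threshold, and Atp5g2 overlapped. Within the sum of the 3, Atp5g2 took 22.7% and 24.0% on High, 10.8% and 20.001% on Medium, and 11.99% and 10.4% on Low. Reads with several alignments were counted, and how reads were divided among these copies was not tested.

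Grouped by position in the enzyme, a grouping made after the values were seen, the median log2 fold change was 0.56 over the 6 membrane (Fo) genes, 5 of them above 0, and 0.29 over the 4 genes of the peripheral stalk, 3 of them above 0. Over the 5 genes of the catalytic head and central stalk (F1) it was −0.10, with 2 above 0. It was 0.32 with library sizes in place of TMM, and −0.11 under TMM with the ribosomal RNA rows left out. The F1 median was −0.36 without High replicate 1 and 0.07 without High replicate 2 or without Medium replicate 1, and the stalk median was 0.08 without Medium replicate 1 and 0.15 without High replicate 2. Atp5b, the catalytic beta subunit, had 971 and 1000.3 CPM on High, 842 and 659.7 CPM on Medium, and 683 and 835 CPM on Low. It was the one ATP synthase gene lower in all 4, with a log2 fold change of −0.38 ± 0.23 (SE) and an unadjusted p of 0.122 (edgeR quasi-likelihood test). With library sizes, which include the ribosomal RNA counts, in place of TMM its fold change was 0.02. Atp5l, the g subunit, overlapped between films at 974 to 1416 CPM.

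Complex I, NADH dehydrogenase, had 34 members, all tested, 21 with a log2 fold change above 0. None passed the adjusted threshold by the edgeR quasi-likelihood test (0.129% of all rows). At an unadjusted p under 0.05, 3 were higher, beside 2.69% of all rows and 8.28% of rows with a mean of at least 100 CPM. By the same rule 1 was lower, beside 2.81% and 5.74%. DESeq2 called 2 (Ndufa2 and Ndufb11), beside 4.54% of all rows. Ndufa2, a thioredoxin-fold accessory subunit of the NADH-oxidizing arm, had 417 and 291 CPM on High, 878 and 617 CPM on Medium, and 818 and 654 CPM on Low. All 4 were above both High libraries, and the log2 fold change was 1.07 ± 0.29 (SE) with an adjusted p of 0.4998 by edgeR and 0.00534 by DESeq2.

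Ndufb3 and Ndufb7, accessory subunits of the distal membrane arm, had estimates of similar size. Ndufb3 had 209.7 and 130.5 CPM on High, 439 and 247 CPM on Medium, and 344 and 404 CPM on Low, with a log2 fold change of 1.07 ± 0.40 (SE). Ndufb7 had 158 and 119 CPM on High, 157 and 285 CPM on Medium, and 388 and 348 CPM on Low, with 1.04 ± 0.43 (SE). The groups were separate for Ndufb3, while Medium replicate 1 lay inside the High range for Ndufb7. Ndufb11, an X-linked subunit of the membrane arm, had the opposite sign, with 520.2 and 773 CPM on High, 329 and 390.2 CPM on Medium, and 385 and 353 CPM on Low. Every other library was below both High libraries, and the log2 fold change was −0.83 ± 0.28 (SE) with an adjusted p of 0.778 by edgeR and 0.0181 by DESeq2. Ndufa1, the complex I gene with the highest mean level, overlapped between High and the other libraries at 612 to 858 CPM with 0.08 ± 0.25 (SE), as did Ndufa5 with 0.32 ± 0.33 (SE).

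The 7 nuclear-encoded core subunits of complex I include its flavoprotein and its iron-sulfur proteins. Their estimates had a median of −0.23 in log2, and 2 were above 0. This median was 0.10 with library sizes in place of TMM, and −0.23 under TMM with the ribosomal RNA rows left out. The 27 accessory subunits had 0.29, with 19 above 0. This grouping too was made after the values were seen. The core genes were less abundant, with a median level of 90.2 CPM against 296 CPM, and in none were the Low and Medium libraries jointly separate from High. The medians moved with single libraries, to 0.04 (core) and 0.12 (accessory) without High replicate 1 and to −0.13 and 0.07 without Low replicate 1.

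Complex III, the cytochrome bc1 complex, had 9 members, all tested, with a median log2 fold change of 0.19, which was 0.51 without High replicate 1 and 0.02 without High replicate 2. Uqcr11, a small accessory subunit, had 228 and 208 CPM on High, 573 and 494 CPM on Medium, and 540.0 and 336 CPM on Low. All 4 were above High, with a log2 fold change of 1.15 ± 0.33 (SE) and an adjusted p of 0.531 by edgeR and 0.00765 by DESeq2. Uqcrh, the hinge protein, and Uqcrq and Uqcrb, small accessory subunits, overlapped with −0.03 ± 0.23, 0.12 ± 0.33 and 0.51 ± 0.40 (SE). Uqcrc1, the first core protein, had 197 and 192 CPM on High and 97.9 to 174 CPM on the other films, with an unadjusted p of 0.287. Cycs, cytochrome c itself, had 139.9 and 124 CPM on High, 296 and 186 CPM on Medium, and 159 and 154 CPM on Low. All 4 were above High by a small margin, with a log2 fold change of 0.56 ± 0.47 (SE).

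Complex II, succinate dehydrogenase, had the only wholly downward set of estimates for Low and Medium jointly against High, 4 of 4 below 0. Their median was −0.37, which was 0.03 with library sizes in place of TMM and −0.05 without High replicate 2. Film by film, Sdhc was at 0.03 ± 0.52 (SE) on Low, and on Medium Sdha was at 0.04 ± 0.71 and Sdhb at 0.15 ± 0.56. No member passed the adjusted threshold by edgeR, DESeq2 or limma-voom, none had an unadjusted p under 0.05, and all 4 overlapped between High and the other 4 libraries. Sdhd, a membrane anchor, had 317 and 235 CPM on High, 238 and 94.5 CPM on Medium, and 106 and 177 CPM on Low, with −0.85 ± 0.50 (SE). Sdhc, the other anchor, had 441 and 389 CPM on High, 108 and 327 CPM on Medium, and 541 and 305 CPM on Low, with −0.45 ± 0.44 (SE). Sdhb, the iron-sulfur subunit, was at −0.04 ± 0.49 (SE) and Sdha, the flavoprotein, at −0.29 ± 0.61 (SE). Without High replicate 2 the estimate for Sdhb was 0.45.

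Summed, complex II stood at 968 and 1060.2 CPM on High, 702 and 758 CPM on Medium, and 891 and 728 CPM on Low. The 4 lower-conductivity libraries were below both High libraries, at a ratio of 0.759, while complexes I, III, IV and V had ratios of 1.17, 1.18, 1.33 and 1.23. With CPM of the library total in place of TMM, the complex II log2 ratio was 0.00 and the others 0.63, 0.63, 0.81 and 0.70. The direction for complex II alone thus differed between these scalings, and its place below the other complexes did not. The library total includes the ribosomal RNA counts, whose share was larger on High. With those rows left out under TMM, the median log2 fold change of complex II was −0.38, beside −0.37 with them. Summed levels over totals without ribosomal RNA were not tested.

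Shares within a library are free of the scaling. Complex II made up 3.67% and 3.93% of the summed level of complexes I to V on High, 1.997% and 2.55% on Medium, and 2.496% and 2.504% on Low. The groups did not overlap, the difference was −1.41 percentage points, and it stayed between −1.55 and −1.27 when each library was left out in turn. Without the highest member of each complex (Ndufa1, Sdhc, Uqcrh, Cox7c and Atp5g3) it was −0.92. Complex IV made up 25.3% and 24.6% on High, 26.7% and 25.6% on Medium, and 29.0% and 27.6% on Low. All 4 were above High, by 2.27 percentage points in the mean, but without the highest member of each complex, which takes out Cox7c, the difference was −1.51. The shares of complexes I, III and V overlapped between High and the other films, at 24.7% to 27.98%, 11.4% to 14.1% and 30.5% to 33.5%.

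**Figure D3:**
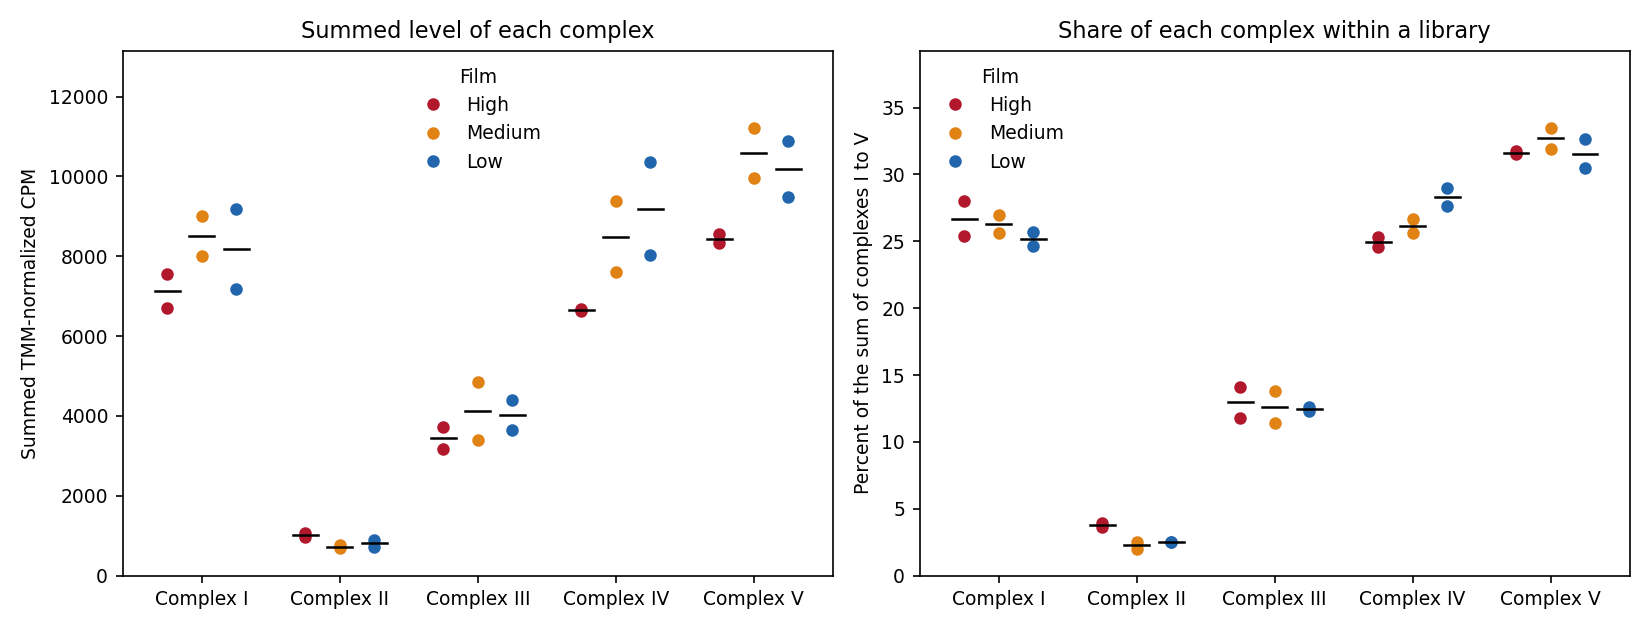
Left, summed TMM-normalized CPM of the members of each complex, and right, the percent each complex takes of the sum of complexes I to V, with 1 point per library and a line at the mean of each film. Complex II is at 3.67% and 3.93% on High and at 1.997% to 2.55% on the other films, and complex IV at 24.6% and 25.3% on High and 25.6% to 29.0% on the others.

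Taken film by film, Low against High and Medium against High shared the same 2 High libraries and are given side by side. Low against High called 0 of 78 members by the edgeR quasi-likelihood test (0.0518% of all rows), 4 by DESeq2 (3.77% of all rows) and 1 by limma-voom (0.207%). At an unadjusted p under 0.05, 9 members were higher (2.56% of all rows) and 1 lower (1.71%). Medium against High called 0 by edgeR (0.0129% of all rows), 5 by DESeq2 (3.97%) and 1 by limma-voom (0.181%), with 8 higher (2.39%) and 1 lower (1.64%) at an unadjusted p under 0.05. For Cox7c the log2 fold change was 1.44 ± 0.23 (SE) on Low, with an adjusted p of 0.0937, and 1.35 ± 0.23 (SE) on Medium, with 0.176. The Cox7c estimates on the 2 films were thus close, and in this edgeR fit the adjusted threshold was passed in the contrast that combines them and in neither single one. Cox7c passed in both single contrasts by DESeq2, by limma-voom, and with no filter on low counts, a mean count of at least 10 or the replicate block. It passed in neither with library sizes alone, DESeq2's size factors in edgeR, ribosomal RNA rows left out or repeated symbols summed. It also passed in neither when only the libraries of the 2 films compared were fitted, where 0 of all rows were called.

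Low and Medium differed from each other in no member by edgeR at the adjusted (0% of all rows) or the unadjusted threshold (1.51%), nor by DESeq2 (1.53%) or limma-voom (0%). The lowest unadjusted p among the members was 0.0704. Cox7c differed by 0.09 ± 0.23 (SE) in log2 between Low and Medium and Ndufa4 by 0.42 ± 0.24 (SE), where both Low libraries were above both Medium libraries. With 2 libraries on each side, the smallest p of an exact permutation test (two-sided) is 0.333.

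**Figure D4:**
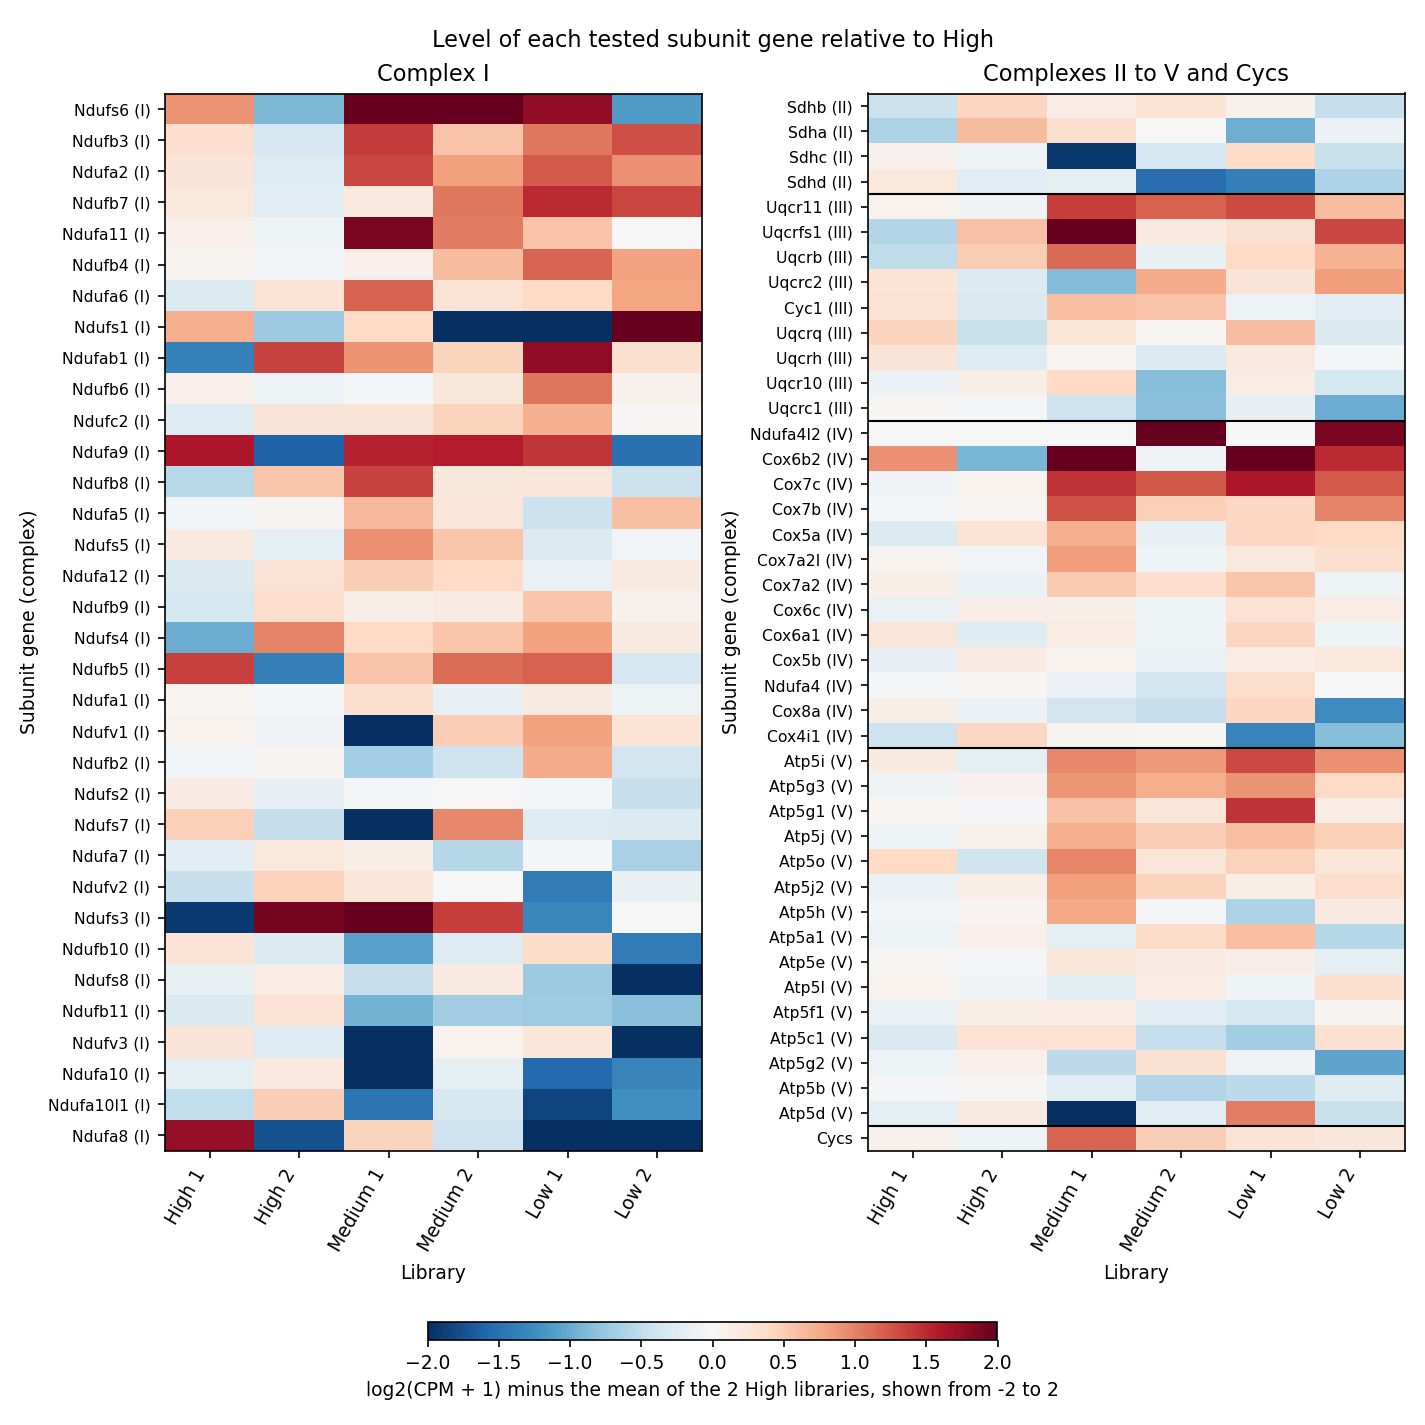
Log2(CPM + 1) of each tested subunit gene in each of the 6 libraries, less the mean of the 2 High libraries, with complex I on the left and complexes II to V and Cycs on the right. Within a complex the genes are ordered by their log2 fold change, and colours stop at −2 and 2. Cox7c, Atp5i and Ndufa2 are red in all 4 Low and Medium libraries and Ndufb11 is blue in all 4.

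Agreement between the 2 libraries of a film set how far these values could be read. The median absolute log2 ratio between replicates, on CPM + 1, was 0.55 over the tested members and 1.69 over all rows tested, and among rows with a mean of at least 100 CPM it was 0.47 and 0.61. Cox7c (0.24) and Ndufa4 (0.22) were among the tighter members. Some members, named here after their values were seen, were at or near 0 in 1 library and well counted in its replicate. Ndufs7, an iron-sulfur subunit of complex I, had 0 counts in Medium replicate 1 and 868 in Medium replicate 2, with 217 to 495 in the others. Atp5d, the delta subunit of ATP synthase, had 0 and 545 counts in the same libraries. Ndufv1, which binds NADH, had 1.03 and 119.9 CPM there. With Medium replicate 2 left out, the low library is the only Medium one, and calls for these 3 members in Low against Medium then rest on it.

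**Figure D5:**
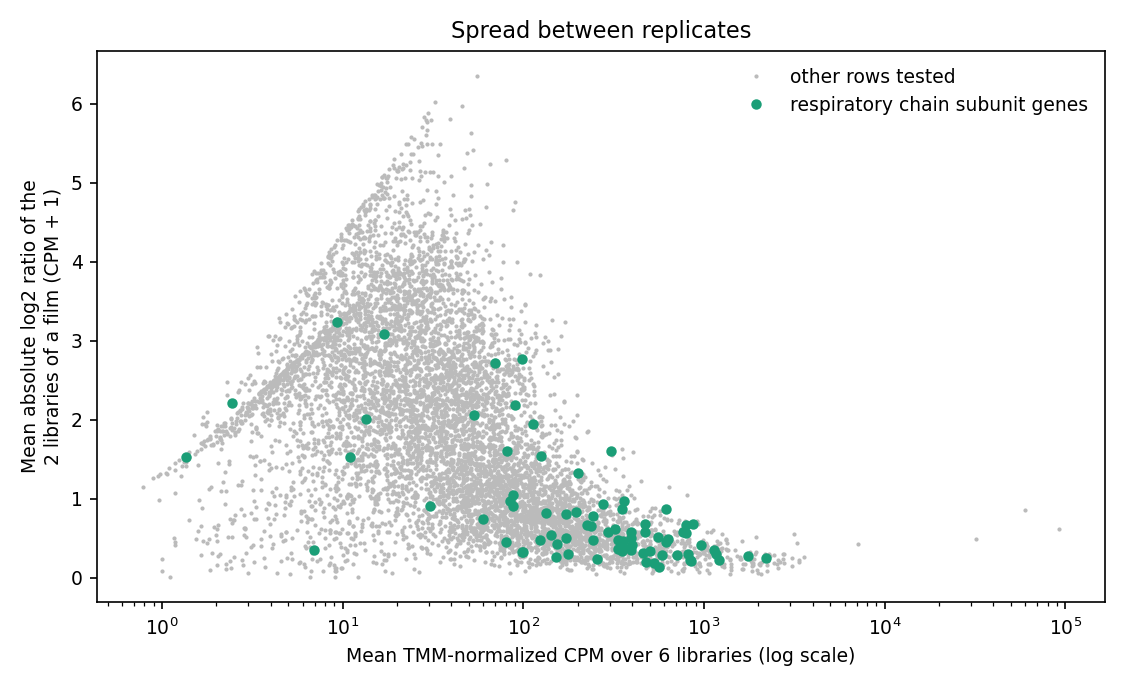
Mean absolute log2 ratio of the 2 libraries of a film (CPM + 1) against mean CPM over the 6 libraries on a log scale, for each row tested, with the respiratory chain genes in green. The spread falls with the level, and the members lie mostly at the abundant end, with medians of 0.47 for members and 0.61 for all rows at 100 CPM or more.

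Genes that build or supply the chain were described in the same fit. Of 35 assembly factors with a row, 32 were tested, 0 passed the adjusted or the unadjusted threshold by the edgeR quasi-likelihood test, and the median log2 fold change was 0.44, or 0.07 without Low replicate 2 and 0.78 without High replicate 1. The copper chaperone Cox17 had the highest level, with 274 ± 156 CPM on High, 567 ± 289 on Medium and 384 ± 134 on Low (SD, n = 2). Of 20 genes of the import machinery, all tested, 0 passed the adjusted threshold and 4 were higher at an unadjusted p under 0.05, with a median of 0.45, or 0.23 without High replicate 2 and 0.93 without High replicate 1. Tomm7, a small subunit of the outer membrane translocase, had 804 ± 242 CPM on High, 1288 ± 282 on Medium and 1289 ± 10.9 on Low (SD, n = 2).

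Among regulators of mitochondrial biogenesis 13 were tested, 0 passed the adjusted threshold and 2 were higher at an unadjusted p under 0.05 (Slirp and Lrpprc, which act together on mitochondrial mRNA), while the median was −0.47, or −0.05 with library sizes in place of TMM. The sign of this median depended on the library left out, at 0.53 when High replicate 1 was dropped and −1.40 when Medium replicate 2 was. Slirp had 799.7 ± 66.4 CPM on High, 1356 ± 142 on Medium and 1098 ± 65.4 on Low (SD, n = 2). The coactivator genes Ppargc1a and Ppargc1b had no count in any library. Of 14 tested genes of the tricarboxylic acid cycle, which feeds complexes I and II, 0 passed either threshold, with a median of −0.04, or 0.37 on that scale, and −0.57 to 0.29 with each library left out in turn. Calls for these lists were made by edgeR only, with the shares of all rows as given above, and the 13 mitochondrially encoded subunits were not analysed here.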

How the data were processed

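Per the labels and the methods of the study, QuantSeq 3′ libraries were made from total RNA of 6 samples, and single-end reads were aligned with Bowtie2 and counted per gene with Bedtools coverage over unique and multiple alignments. The submitters' processing notes name the rn6 build. The RNA isolation reagent differs between labels and methods. What the authors deposited are whole-number counts per gene, 1 table per library, before normalization and without molecular identifiers, so counts cover sequenced reads, not molecules. Total counts on High were 5478066 and 5412882, on Medium 5124863 and 5914540, and on Low 6213676 and 5460031. The tables held 0 columns of other samples.

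Counts were filtered with filterByExpr at its defaults (a minimum count of 10 and a minimum total of 15), scaled by TMM and tested in edgeR 4.0.16 (R 4.3.3) with the quasi-likelihood test. All 7729 rows left entered one fit of 3 film means, with a common dispersion of 2.04, 6.96 prior and 3 residual degrees of freedom. Rows that repeat a symbol (167, no member among them) were kept apart. The 4 contrasts set Low and Medium jointly against High, each of both against High, and Low against Medium, and p-values were Benjamini-Hochberg adjusted over all rows of a contrast with a threshold of 0.05. SE is the log2 fold change divided by the root of the F statistic. The code was tested on simulated data with a dispersion of 0.05, below the 2.04 of these data. That test therefore does not show how often changes are found at the spread seen here. DESeq2 1.42.0, limma-voom (limma 3.58.1), other scalings and filters, a replicate block, and leaving out each library were alternatives. A floor of 3 counts per library and a pseudocount of 1 for replicate spread were used.

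Named members are Cox7c and Ndufa4, those past the adjusted threshold in any contrast or with an unadjusted p under 0.05 for Low and Medium against High, the 3 highest of each complex, Cycs, paralogs, and those with no count. Of other lists, those past the threshold or up to 3 of the highest are named. Other names were chosen after the values were seen. The members and all gene lists were chosen with earlier results of these data known, so no test over a list was made. Promoters came from RefSeq (GRCr8) by symbol, with no coordinates carried to or from rn6, and 13 members had no window.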

Additional observations from a re-analysis of the deposited data

How the results depend on the processing

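The count of members past the adjusted threshold for Low and Medium against High was 1, and it was 6 with DESeq2 and 0 with DESeq2's size factors in edgeR, and 1 to 4 when each library was left out in turn, with 4 without Medium replicate 2 (Cox7c, Ndufa2, Ndufs7 and Atp5d) and 4 without Low replicate 2 (Cox7c, Ndufa2, Atp5g3 and Atp5i). For Low against High it was 0, and 4 with DESeq2, 1 with limma-voom, with no filter, with a mean count of at least 10 or with the replicate block, and 1 to 3 with a library left out (3 without Low replicate 2). For Medium against High it was 0, and 5 with DESeq2, 1 with each of the other settings just named, and 0 to 5 with a library left out (5 without Medium replicate 2). For Low against Medium it was 0, and 0 to 3 with a library left out (3 without Medium replicate 2). Over all rows tested, the deviations of the libraries from their film means correlated between films, by replicate number, at 0.00342 to 0.00733. Of these rows 5882 had a mean under 100 CPM, where replicates differ most, and abundant rows were not checked apart. The check therefore cannot exclude that replicate numbers pair the libraries. The replicate block moved the count over all rows from 10 to 57. Library sizes in place of TMM moved the median of the members from 0.15 to 0.53 and that of all rows from −0.12 to 0.26. CPM of the library total gave log2 ratios of summed levels of 0.63, 0.00262, 0.63, 0.81 and 0.70 for complexes I to V, against 0.23, −0.40, 0.24, 0.41 and 0.30. Without the highest member of each complex, the share differences of complexes I to IV were 0.92, −0.92, 1.14 and −1.51 percentage points, against −0.95, −1.41, −0.41 and 2.27. For complex I the difference was −2.25 with High replicate 1 left out and 0.36 with High replicate 2 left out. Counting Ndufa4 with complex I, an alternative chosen after seeing the data, made the complex IV difference 3.12. Of the values for whole comparisons under all alternatives, 120 stayed within 1.5 times the reported count or within the replicate spread and 39 moved. Of the values for named genes under all alternatives, 417 kept their side of the threshold and their direction, or changed direction by less than 1 SE of the reported value. A further 9 passed the threshold, 1 lost it (Cox7c with DESeq2's size factors) and 7 changed direction by 1 SE or more. Shifts that kept their direction were not measured against the SE. The causes of these shifts were not tested. Among the members, 9 had 0 counts in 1 to 5 libraries, and the part of depth in this was not tested. Rows with a count numbered 5355 in Medium replicate 1 and 6689 to 7809 in the other libraries.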

Other observations

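The following members fell outside the naming rule and were chosen after their values were seen. Atp5s, coupling factor B, had 0 counts in both High libraries, 78 and 117 counts on Medium, and 39 and 21 counts on Low. It is the only member that was absent from both High libraries and counted in all 4 others, and its levels on the other films were 3.52 to 19.2 CPM, with an unadjusted p of 0.109 in the edgeR quasi-likelihood test and an adjusted p of 0.801. Ndufb4, an accessory subunit of complex I, had 256 and 236 CPM on High, 264 and 382 CPM on Medium, and 552 and 431 CPM on Low, with a log2 fold change of 0.70 ± 0.32 (SE). Atp5j, coupling factor 6 of the peripheral stalk of ATP synthase, had 371 and 423 CPM on High, 656 and 560.1 CPM on Medium, and 603 and 552 CPM on Low, with 0.58 ± 0.26 (SE). In both genes the 4 lower-conductivity libraries were above both High libraries, and neither passed the adjusted threshold. Ndufa10, an accessory subunit of complex I related to nucleoside kinases, had 116 and 152 CPM on High, 23.2 and 117.6 CPM on Medium, and 44.6 and 51.9 CPM on Low, with −1.20 ± 0.87 (SE), and 1 Medium library lay inside the High range.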
